A study of Mus musculus with 4 samples.

Results

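Genes of the cell cycle and of DNA replication were examined in the dentate gyrus of handled control mice. They were chosen by name alone. A probe set was a member when the array annotation gave it exactly 1 gene symbol and that symbol was one of the A, B, D, E or G cyclins, a cyclin-dependent kinase (Cdk) or Cdk inhibitor, a numbered Cdc, Mcm or E2f gene, Pcna, Top2a, Mki67, or a DNA polymerase alpha, delta or epsilon gene. Cdkn1a and Cdkn1c were left out. This gave 99 of 12422 non-control probe sets and 76 of 8251 named genes. The name pattern also takes genes that act outside division, such as Cdk5 and Cdc42.

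Each of the 4 samples was RNA from hippocampal dentate gyrus, taken from young male mice of the C57BL/6J strain and hybridised to a single-channel oligonucleotide array. All were handled controls without further treatment, taken 1, 2, 4 and 6 h after the last shock of experimental mice that were not analysed here. With 1 array per hour, single hours carry no replicate error, and each mean ± SD runs over all hours (n = 4). How many mice went into an RNA is not stated, and p-values measure only the spread between these samples.

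In a dividing cell, D cyclins with Cdk4 release E2F transcription factors from the retinoblastoma protein, and E2F then drives genes of DNA synthesis. The MCM helicase is loaded at replication origins with the help of Cdc6, and is started by Cdc7 and Cdc45. Cyclin A and B with Cdk1 then carry the cell into mitosis, which ends when the anaphase-promoting complex with Cdc20 marks cyclin B for destruction. In the adult dentate gyrus a small pool of progenitors in the subgranular zone keeps dividing, while granule neurons do not. Postmitotic neurons use some proteins of the same families for other ends: Cdk5 with its activators p35 and p39 (Cdk5r1 and Cdk5r2) acts in neuronal migration and synaptic function, and Cdc42 is a small GTPase that shapes the actin of dendrites and spines.

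The members were divided by role. A proliferation set held 35 probe sets of 27 genes that act in S phase or mitosis or mark dividing cells. A neuronal set held 8 probe sets of 7 genes, namely Cdk5, Cdk5r1, Cdk5r2, Cdk14, Cdk16, Cdk18 and Cdc42. The other 56 probe sets, of 42 genes, belonged to neither. Promoter sequences show a feature that the choice by name did not use. RefSeq promoter windows on GRCm38.p6 were found for 66 of the 76 genes (78 windows), and the 250 bases upstream of each start were searched on both strands for 3 motifs. These were an E2F-type site (TTTNNCGC), the CHR element of mitotic genes (TTTGAA) and the CCAAT box (CCAAT). The E2F-type letters were in 8 of 26 windows of the proliferation set (30.8%), against 4.28% of all 32851 windows. The CHR letters were in 9 of the 26 (34.6%, against 16.0%) and the CCAAT letters in 18 (69.2%, against 33.8%). Among 6 windows of the neuronal set, 0 held the E2F-type letters, 1 the CHR letters and 3 the CCAAT letters. A match is a description of the letters, and base composition was not compared. The first 4 of the following stretches, each the 150 bases before the start written 5′ to 3′, belong to the proliferation set, and the last 2 to the neuronal set. Capitals mark matches to any of the 3 motifs in either orientation.
Mcm6 (chr1:128359706-128359855, minus strand): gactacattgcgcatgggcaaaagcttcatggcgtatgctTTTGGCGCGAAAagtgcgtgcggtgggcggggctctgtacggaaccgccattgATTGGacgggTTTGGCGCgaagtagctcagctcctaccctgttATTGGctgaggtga
Cdk1 (chr10:69352913-69353062, minus strand): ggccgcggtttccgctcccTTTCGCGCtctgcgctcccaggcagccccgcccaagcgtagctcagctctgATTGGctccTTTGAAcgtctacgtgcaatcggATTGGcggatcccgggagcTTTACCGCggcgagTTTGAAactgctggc
Top2a (chr11:99024190-99024339, minus strand): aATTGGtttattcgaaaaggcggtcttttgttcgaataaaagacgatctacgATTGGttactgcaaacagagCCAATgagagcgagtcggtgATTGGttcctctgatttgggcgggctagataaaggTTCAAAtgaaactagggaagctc
Mki67 (chr7:135716380-135716529, minus strand): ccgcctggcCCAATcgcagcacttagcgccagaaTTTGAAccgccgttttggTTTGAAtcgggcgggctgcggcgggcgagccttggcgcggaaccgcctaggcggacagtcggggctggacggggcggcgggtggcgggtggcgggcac
Cdk16 (chrX:20687804-20687953, plus strand): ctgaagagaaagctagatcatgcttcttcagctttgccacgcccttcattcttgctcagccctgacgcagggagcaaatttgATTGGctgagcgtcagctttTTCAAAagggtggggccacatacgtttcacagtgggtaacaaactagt
Cdc42 (chr4:137357760-137357909, minus strand): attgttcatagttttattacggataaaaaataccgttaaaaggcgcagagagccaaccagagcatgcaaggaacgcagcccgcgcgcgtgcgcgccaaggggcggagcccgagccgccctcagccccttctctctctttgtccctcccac
Mcm6 carries 3 E2F-type matches, of which 2 overlap, and 2 CCAAT matches. Cdk1 carries 2 matches to each motif. Top2a has 1 CHR and 4 CCAAT matches and Mki67 has 2 CHR and 1 CCAAT matches, both with 0 E2F-type matches. The Cdk16 stretch holds 1 CHR and 1 CCAAT match, and the corresponding stretch of a second Cdk16 start holds 0 of any motif. The proliferation stretches were chosen for their matches. The windows of Ccne1, Pola2, Pold1 and Pole2, of the same set, hold 0, as does 1 window of Cdc7. The Cdc42 stretch holds 0 of the 3 motifs.

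Brightness was judged against all probe sets. Intensities under 16.4, the 10th percentile of all non-control values, were treated as a floor, and a probe set was tested when its mean log2 intensity reached the 40th percentile (6.66, an intensity of 101). Of the 99 members, 66 passed this filter, or 66.7%, against 7453 of all 12422 probe sets. In the proliferation set 19 of 35 passed (54.3%) and in the neuronal set 7 of 8. Of the 27 genes of the proliferation set, 10 had no probe set that passed. Intensity depends on the probes, so it does not rank transcript levels between genes. In bulk tissue, fewer cells of a type and less RNA per cell cannot be told apart.

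**Figure D1:**
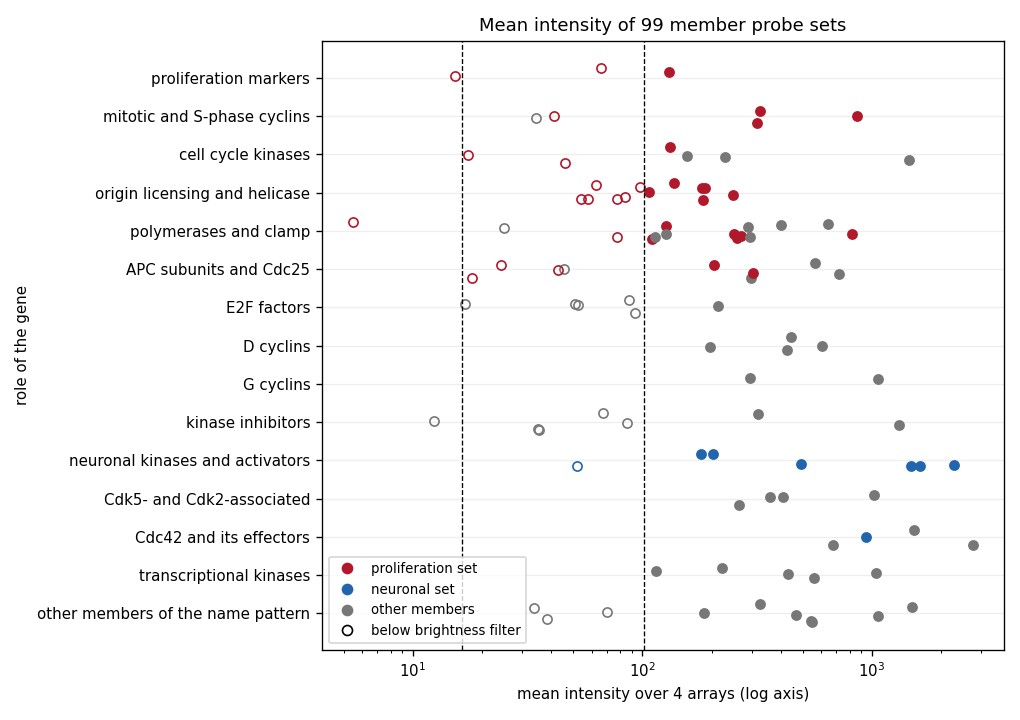
Mean intensity over 4 arrays (log axis) of the 99 member probe sets, 1 point each, in rows by role. Dashed lines mark the floor of 16.4 and an intensity of 101, and hollow points did not pass the filter, which was set on mean log2 values; 16 of 35 proliferation probe sets are hollow, against 1 of 8 in the neuronal set.

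Mki67, Top2a and Cdk1, markers of dividing cells, read near or below the filter. Other genes of the proliferation set, such as Pcna, Ccna2, Ccnb2 and Ccne1, read brighter and passed it. Mki67, the nuclear antigen used to count cycling cells, read 158, 90.7, 174 and 98.6 at 1, 2, 4 and 6 h on a probe set that passed the filter. It was high at 1 and 4 h and low at 2 and 6 h. A second Mki67 probe set read 21.4, 4.4, 5.6 and 29.6, under the floor at 2 and 4 h. Top2a, the topoisomerase that untangles chromosomes in mitosis, read 125, 14.2, 69.0 and 56.5. Its 1 h value was the highest and its 2 h value lay under the floor. Cdk1, the kinase of mitotic entry, read 80.4, 46.4, 29.3 and 28.0, lower at each later hour. Neither Top2a nor Cdk1 passed the filter.

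Some cyclins and their partners passed the filter. Ccna2, the cyclin of S phase and early mitosis, read 390, 266, 362 and 285, with a mean of 325.5 ± 59.4 (SD, n = 4). Ccnb2, a mitotic cyclin, read 332, 317, 335 and 278, and the 4 values lay close together. Ccne1, which drives entry into S phase, read 1122.5, 765, 888 and 666, highest at 1 h. Its relative Ccne2 read 63.3, 63.2, 36.3 and 2.2, and Ccna1, the germline cyclin A, 62.5, 32.4, 6.4 and 35.6, so neither passed. Cdk2, the partner of cyclins E and A, read 149.5, 121, 133 and 123 on 1 probe set and between 14.1 and 20.9 on another. Cdk4, the partner of D cyclins, read 1295, 1547, 1414 and 1532 on its brighter probe set. Its dimmer one read 296, 221, 193 and 210.0. They went opposite ways at 1 h. Cdk7, which activates other Cdks, read 147, 196, 149 and 135.

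Origin licensing and helicase genes were split by the filter, with 6 of 12 probe sets passing. Mcm2, a helicase subunit, read 225, 82.8, 282 and 143, high at 1 and 4 h and low at 2 and 6 h. Mcm4 read 45.4, 191, 173 and 142, and its 1 h value stood below the other 3. Mcm7 read 135, 209.6, 163 and 245, with its highest value at 6 h. Mcm5 read 253, 245, 258 and 238 on 1 probe set, a mean of 248.5 ± 8.40 (SD, n = 4). It was among the 5 steadiest members that passed. Its second probe set read 195.5, 42.3, 54.7 and 44.8, and only its 1 h value was high. Mcm3 read 136, 119, 113.5 and 59.5 on 1 probe set. The other read 140.4, 166, 199 and 225, so they ran in opposite directions over the hours. Mcm6 read 113, 21.3, 74.9 and 23.0 and did not pass, nor did Mcm10, which helps open the origin (31.9, 82.0, 9.2 and 93.0). The loading factor Cdc6 read 81.3, 75.9, 23.3 and 69.8, the starting kinase Cdc7 111.5, 75.9, 59.2 and 62.9, and the helicase partner Cdc45 43.7, 36.9, 206 and 102. None of these passed the filter.

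The replication clamp and polymerase genes were bright enough more often, with 12 of 15 probe sets passing. Pcna, the sliding clamp of DNA polymerase, read 764, 842, 805 and 858, a mean of 817 ± 41.8 (SD, n = 4). Its 4 values differed little. Pold2, a polymerase delta subunit, read 119, 410.0, 331 and 210.1, lowest at 1 h. Pold1, the catalytic subunit of polymerase delta, read 187, 149.5, 119 and 51.7 on 1 probe set, and the other read 281, 105, 355 and 264, and the lowest values fell at different hours. Pold3 and Pold4, accessory subunits, had means of 403 ± 54.9 and 294.5 ± 17.6. Pola1 and Pola2, subunits of the primase-polymerase alpha complex, averaged 110.5 ± 28.9 and, on the probe set that passed, 259 ± 39.7. The brightest probe set of Pole3, a small histone-fold subunit of polymerase epsilon, averaged 646 ± 49.4, and Pole4, its partner, 289 ± 54.6. Pole2, another epsilon subunit, read 5.5, 8.7, 5.1 and 2.6, under the floor in all 4 arrays.

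Among regulators of mitotic exit and entry, Cdc20, the activator of the anaphase-promoting complex, read 228, 183, 184.4 and 225. Cdc16, Cdc23 and Cdc26 are subunits of that complex, which neurons also use. Cdc16 read 938, 493, 626.5 and 826, Cdc26 537, 530, 607 and 592, and Cdc23 196, 324, 368 and 305 on the probe set that passed. The phosphatase gene Cdc25a, which activates Cdk2, read 328, 281, 353 and 253 on the probe set that passed. Cdc25c, which activates Cdk1, did not pass on either probe set, and both were highest at 1 h (87.0 and 41.8).

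Of 6 probe sets of E2F factors, 1 passed, that of E2f5, a repressor type, at 170, 261, 244 and 179. E2f1, the activator of S phase genes, read 18.2, 21.4, 21.2 and 6.8 on 1 probe set. The other read 151, 84.8, 30.3 and 104. E2f3 read 7.8, 39.2, 54.8 and 102, and the 2 probe sets of E2f8 reached 175 and 81.0 in their brightest array. The D cyclins all passed. Ccnd2, which adult hippocampal neurogenesis requires, read 285, 490, 453 and 478, low at 1 h and close together later. Ccnd3 read 525, 564, 666.5 and 680, and Ccnd1 503, 499, 358.5 and 412 on its brighter probe set. The G cyclins, which are not needed for the cycle itself and respond to stress, averaged 296 ± 43.6 (Ccng1) and 1066 ± 113 (Ccng2).

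Of the Cdk inhibitors, Cdkn2d, an inhibitor of Cdk4 found in mature neurons, read 1384, 1326, 1273 and 1252, and its values were among the steadiest of the members. Cdkn2c, of the same family, read 370, 345.5, 244 and 319. Cdkn1b, which holds cells in quiescence, read 23.2, 58.4, 39.4 and 20.4 on 1 probe set. The other read 85.1, 78.5, 27.2 and 79.2, both below the filter. Cdkn2a read 21.5, 170, 24.0 and 129, high at 2 and 6 h, and Cdkn2b 23.7, 7.0, 5.0 and 13.8. Cdkn3, a phosphatase that acts on Cdks, read 13.2, 19.8, 96.6 and 10.5.

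The neuronal set was mostly bright enough to be tested. Cdk5 read 1405, 1649, 1560 and 1849.5, a mean of 1616 ± 186 (SD, n = 4), and its highest value was 1.32 times its lowest. Its activator gene Cdk5r1 read 205, 244, 172 and 190. The other activator, Cdk5r2, read 101, 42.5, 18.1 and 46.2 and did not pass. Cdk16, a kinase of the PCTAIRE group expressed in postmitotic cells, read 1095, 1768, 1444.5 and 1626, lowest at 1 h. Cdk18, of the same group, read 489, 519, 487.5 and 460.5. Cdk14, a related PFTAIRE kinase, read 2741, 2154, 2032 and 2202.5 on its brighter probe set, highest at 1 h, and 106, 236, 191 and 190.1 on the dimmer, lowest at 1 h. Cdc42 read 743, 1143.5, 880 and 994, lowest at 1 h. Among 7 probe sets of this set that passed, the 2 h array was the highest in 5, against 25.4% over all tested probe sets, and the 1 h array the lowest in 4, against 30.4%.

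**Figure D2:**
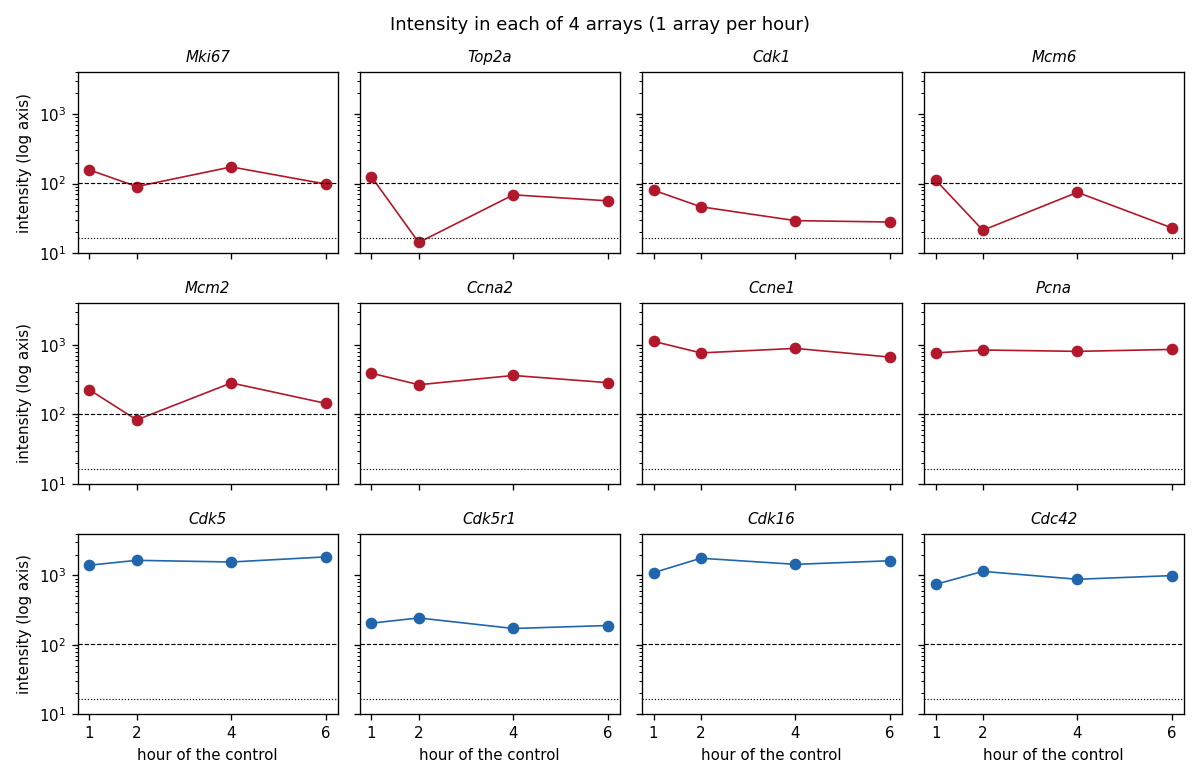
Intensity (log axis) of 12 members in the arrays of 1, 2, 4 and 6 h, 1 point per array, with proliferation genes in red and neuronal genes in blue; dotted and dashed lines mark intensities of 16.4 and 101. Top2a and Mcm6 lie above the dashed line at 1 h alone, and Top2a lies under the dotted line at 2 h, while Pcna, Cdk5 and Cdk5r1 stay nearly level above the dashed line.

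The other members that the name pattern took were mostly bright enough to be tested. Cdc42se2 and Cdc42se1, which bind Cdc42, averaged 2753 ± 113 and 1520 ± 138, and Cdc42ep4, a Cdc42 effector, 680 ± 110.0. Cdk9, the kinase that releases paused RNA polymerase, read 1064.5, 1000.5, 1058 and 1036.5 and had the smallest spread of the members tested. Cdk8, of the Mediator kinase module, averaged 561 ± 99.2, and Cdk11b, another transcriptional kinase, 432 ± 76.1 on its brightest probe set. Cdc37, the cochaperone that brings kinases to Hsp90, read 845, 1717, 1515 and 1895, and Cdc34, a ubiquitin-conjugating enzyme, 294, 644, 580 and 665. Both were lowest at 1 h. Cdc123, which assembles an initiation factor of translation, averaged 1062 ± 44.3, and Cdc5l, a splicing factor, 545 ± 63.7 on its brighter probe set. Cdk2ap1 and Cdk2ap2, named for binding Cdk2, averaged 1021 ± 130.0 and 410 ± 44.2. Mcm3ap, an mRNA export factor, averaged 324 ± 44.8 and Cdkn2aipnl 467 ± 82.2. Cdk5rap3 read 209.1, 568, 288 and 377 on 1 probe set. The other read 344, 281.5, 225 and 203. Cdc73, of the Paf1 complex (97.0, 76.2, 66.9 and 40.2), and Ccnb1ip1 (27.7, 42.2, 37.9 and 27.2) did not pass.

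The arrays differed more on dim probe sets. Over the tested members the median SD was 0.26 on the log2 scale, beside 0.24 over all tested probe sets. It was 0.32 in the proliferation set (a factor of 1.25) and 0.21 in the neuronal set (a factor of 1.16). Without the 1 h array these medians were 0.18 for the members, 0.18 for all probe sets, 0.25 for the proliferation set and 0.15 for the neuronal set. Members below the filter had a median SD of 0.79, and all probe sets below it 0.67. The widest spreads among tested probe sets of the proliferation set were those of Mcm2, Mcm4, Pold2 and both of Pold1. A filter at the 60th percentile kept 5 probe sets of each set. The median SDs were then 0.22 (proliferation) and 0.19 (neuronal), and 0.41 and 0.24 with no filter. Without probe sets of shared sequence they were 0.265 and 0.21. No test compares the 2 sets, and their difference in brightness is not separated from their difference in spread.

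**Figure D3:**
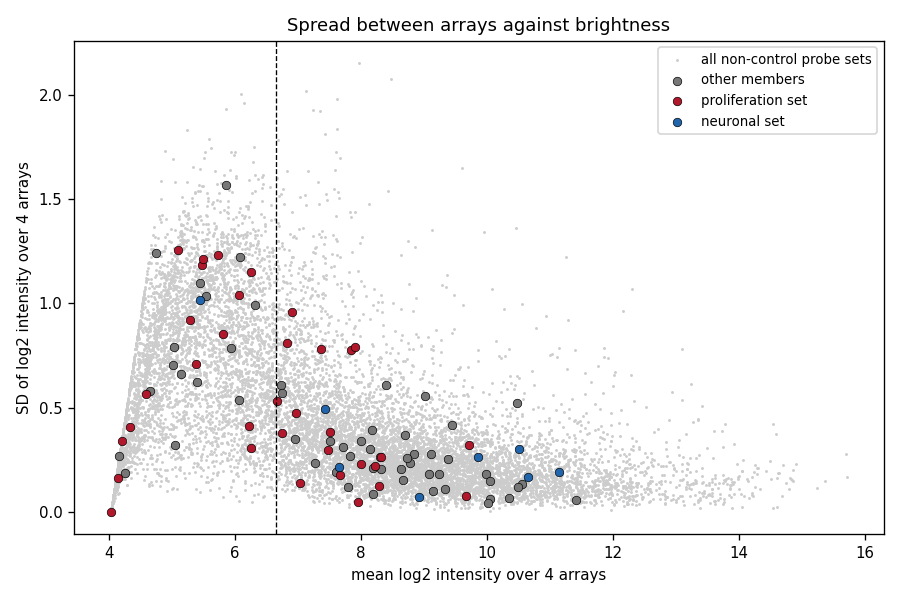
SD of log2 intensity over 4 arrays against mean log2 intensity for all non-control probe sets (grey), with members coloured by set; the dashed line marks the filter at 6.66. Spread is wide to the left of the line and narrow to the right, and most of the neuronal set (median SD 0.21) lies to the right.

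The question of a steady change over the hours was addressed in limma, by regressing log2 intensity on the hour. Of the 66 tested members, 0 passed an adjusted p of 0.05 in limma, and 1 of 7453 probe sets did (0.0134%). At an unadjusted p under 0.05 there was 1 member, against 4.4% of all tested probe sets. Slopes were positive in 33 members and negative in 33, with a median of 0.00 log2 units per hour, and 46.5% of all tested slopes were positive, with a median of -0.01. In the proliferation set 8 of 19 slopes were positive (median -0.04), and in the neuronal set 4 of 7 (median 0.04). The neuronal median was -0.04 without the 1 h array. That of the proliferation set was 0.006 without the 1 h array and 0.013 without the 6 h array, so neither sign was stable. The 1 member was a Pold1 probe set whose readings stand above, with a slope of -0.35 ± 0.12 (SE; limma adjusted p = 0.874). The other Pold1 probe set had a slope of 0.12. The largest positive slopes were those of Mcm4 (0.23 ± 0.18), Cdc34 (0.17 ± 0.09), Cdc37 (0.17 ± 0.07), Cdc5l (0.15 ± 0.08) and Pole3 (0.15 ± 0.15). The Cdc5l and Pole3 slopes are each those of the dimmer of 2 tested probe sets. After Pold1, the largest negative slopes were those of Mcm3 (-0.22 ± 0.13), Cdk5rap3 (-0.15 ± 0.07), Ccne1 (-0.11 ± 0.06) and Pola1 (-0.09 ± 0.13), and none passed. Cdc34, Cdc5l, Pole3, Mcm3 and Cdk5rap3 each had another probe set with a slope of the opposite sign. Pcna had a slope of 0.02 ± 0.04 and Cdk5 0.06 ± 0.04. Without the 1 h array the slope of Mcm4 was -0.11, that of Ccnd2 -0.01 and that of Cdc37 0.04.

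Differences between hours have no test. At least 2-fold higher than at 1 h were 7 members at 2 h, 2 at 4 h and 4 at 6 h, of 66. Over all tested probe sets the shares were 6.35%, 5.68% and 5.69%. At least 2-fold lower than at 1 h were 2, 0 and 2 members, against 3.45%, 2.74% and 3.65%. Those higher at 2 h were probe sets of Mcm4, Pold2, Pole3, Cdc34, Cdc37, Cdk14 and Cdk5rap3, and those lower were of Mcm2 and Pold1. The other tested probe sets of Cdk14 (2741 at 1 h, 2154 at 2 h) and Cdk5rap3 (344 and 281.5) read lower at 2 h, and that of Pole3 read 593 and 670.2. All 3 contrasts share the 1 h array. Higher at 4 h were Mcm4 and Pold2, and at 6 h Mcm4, Pole3, Cdc34 and Cdc37. Probe sets of Mcm3 and Pold1 were lower at 6 h, and that of Pold1 (187 at 1 h, 51.7 at 6 h) was not the one lower at 2 h (281 at 1 h, 105 at 2 h).

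The 1 h array stood apart from the other 3. Its ratio of the 3' to the 5' Gapdh control probe sets was 4.88, against 1.13 to 1.33 in the other arrays. The same ratio of the actin controls differed less, at 2.51 against 1.83 to 2.20. Against the mean of the other arrays, 0 tested members were at least 2-fold higher at 1 h (1.8% of all tested probe sets) and 5 lower (5.29%). The 5 were Mcm4 (3.69-fold), Pold2 (2.57-fold), Pole3 (2.24-fold), Cdc34 (2.14-fold) and Cdc37 (2.01-fold). The Pole3 probe set among them read 58.5, 151, 112 and 132, while the brightest of that gene differed by -0.16 on the log2 scale. Within the proliferation set 14 of 19 tested probe sets read higher at 1 h, with a median log2 difference of 0.22, while 4 of 7 in the neuronal set read lower, with a median of -0.26. Over all tested probe sets 4072 of 7453 read higher and 3381 lower, with a median of 0.05. Such splits were not particular to 1 h. At 4 h the proliferation set also had 14 higher and 5 lower, with a median of 0.12. The neuronal set had 6 higher and 1 lower at 2 h, and 1 higher and 6 lower at 4 h. Over all tested probe sets 3921 read higher and 3532 lower at 2 h, and 3902 and 3551 at 4 h. The 1 h array was the highest of the 4 in 7 of the 19 of the proliferation set, and over all tested probe sets in 35.4%. At 2 h, 2 members were at least 2-fold higher than the other arrays (1.81%) and 2 lower (1.58%). At 4 h, 2 were higher (1.42%) and 0 lower (1.4%), and at 6 h 0 were higher (0.912%) and 2 lower (1.85%). Mcm2 accounts for 1 of those lower at 2 h and 1 of those higher at 4 h. Without the 1 h array, 0 members were higher at 2 h and 0 lower at 6 h. In 4 of 66 tested members 1 array lay further from its nearest neighbour than Dixon's 95% limit for 4 samples allows, against 8.63% of all tested probe sets. Of the 5 neuronal marker probe sets, 3 were lowest at 1 h. Map2 read 27.9 at 1 h against 246 to 496 later, Syp 569 against 1333 to 1810, and the brighter Tubb3 probe set 6613 against 8048 to 9034. The dimmer Tubb3 probe set was lowest at 2 h, and Snap25 was highest at 1 h (22175). Whether the Gapdh or actin ratio bears on these members was not tested.

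Below the filter, readings of the proliferation set were often highest at 1 h. The 1 h array was the highest of the 4 in 10 of 16 dim probe sets of the proliferation set, and in 32.8% of all dim probe sets. At least 2-fold higher at 1 h than the mean of the other arrays were 6 of those 16, against 19.4% of all dim probe sets. They were those of Top2a, Cdk1, Mcm6 and Mcm5 and both of Cdc25c. At least 2-fold lower was 1 of the 16, that of Cdc45, against 11.0%. Of these 16 probe sets, 9 lay under the floor of 16.4 in at least 1 array, so the folds are not given. The 16 were not tested, and for Mcm5 the brighter probe set read nearly the same in all 4 arrays. Other dim cell cycle probe sets lay nearer the share of 19.4%. At least 2-fold higher at 1 h were 4 of 16 dim members in neither set (25.0%). Among the other pathway genes listed below, 11 of 38 dim probe sets were (28.9%).

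**Figure D4:**
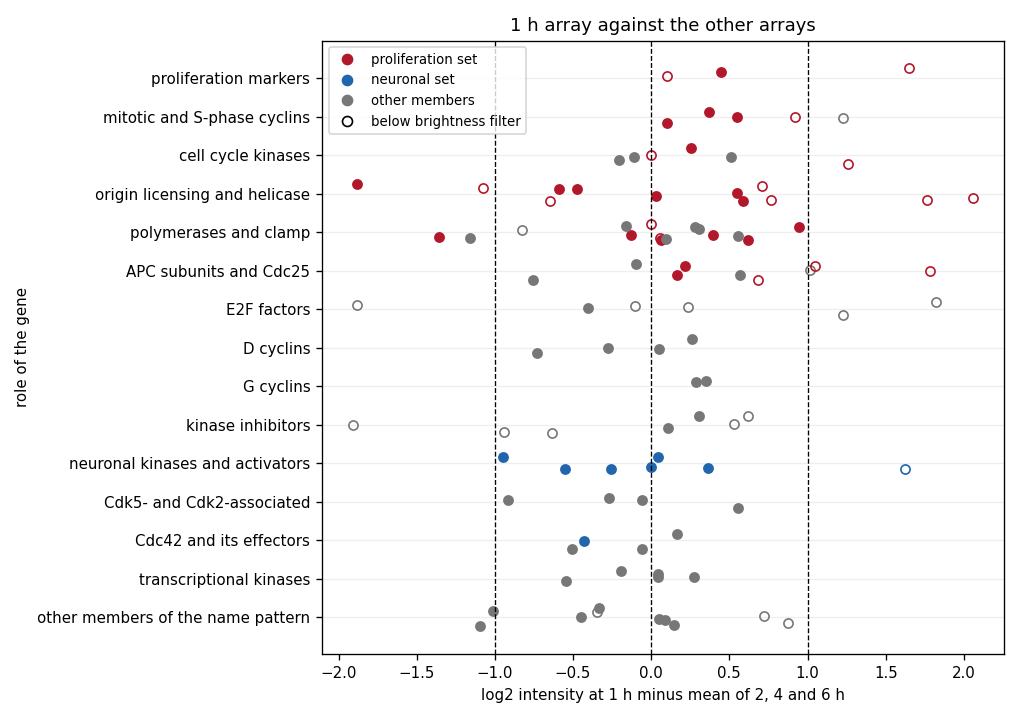
Log2 intensity at 1 h minus the mean of 2, 4 and 6 h for each member probe set, in rows by role, with hollow points below the filter; dashed lines mark 0 and 2-fold differences. The filled points past the left line are those of Mcm4, Pold2, Pole3, Cdc34 and Cdc37, and those far to the right are hollow.

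Several probe sets were present for 21 of the 76 genes, 44 probe sets in all. For 10 of these genes all probe sets differed in the same direction at 1 h from the other arrays, and for 11 they did not. Among 10 genes with at least 2 tested probe sets, 4 went the same way and 6 did not. The 6 were Cdc5l, Cdk11b, Cdk14, Cdk4, Cdk5rap3 and Mcm3. Slopes over the hours had both signs in 14 of the 21 genes. The largest gap was that of Mcm5, with log2 differences at 1 h of 0.03 and 2.06. Cdc34 followed, at -1.10 on the tested probe set and 0.87 on the dim one. Of the 99 members, 14 had identifiers of the kind given to probe sets that cross-match other genes or break a design rule, among them the tested ones of Mki67 and Pold2, and 6 of the 14 passed the filter.

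**Figure D5:**
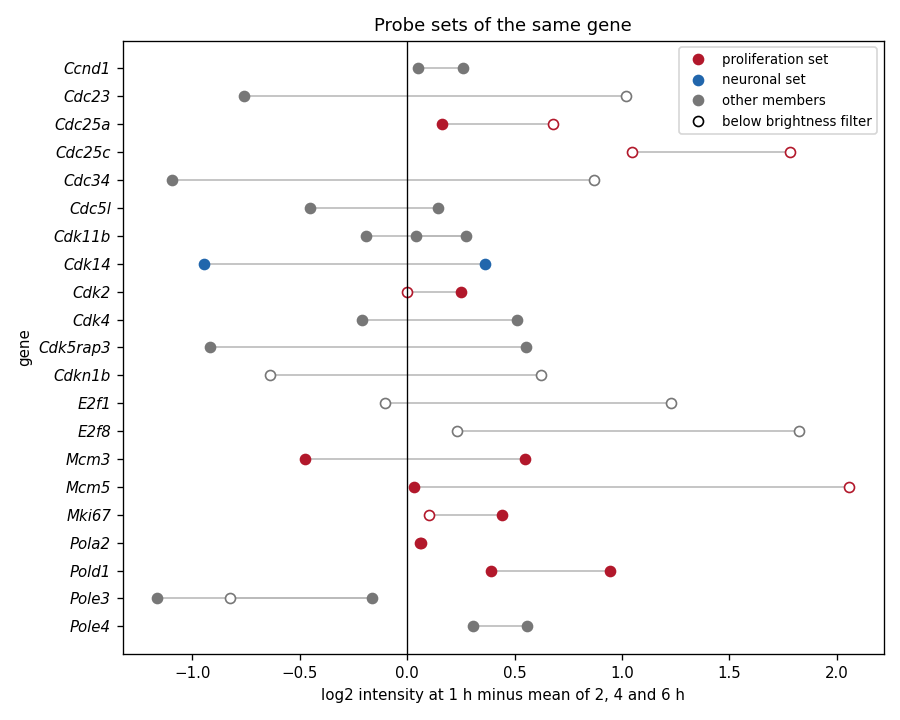
Log2 intensity at 1 h minus the mean of 2, 4 and 6 h for the 21 genes with several probe sets, 1 point per probe set, hollow below the filter, joined by a line within a gene. The points of a gene lie on both sides of 0 for 11 genes, and those of Mcm5 span 0.03 to 2.06.

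Other genes of the same pathways, listed by name, were counted the same way. Of 70 probe sets of 50 such genes, 32 passed the filter (45.7%). In limma 0 of the 32 passed the trend test, and 0 had an unadjusted p under 0.05. Slopes were positive in 12 and negative in 20. The largest positive slopes were those of Wee1, the kinase that restrains Cdk1 (31.9, 161, 135.5 and 152), Tk1, thymidine kinase (139, 73.5, 97.6 and 266.5), and Foxm1, a factor of mitotic genes (397, 320.3, 326 and 694). The largest negative ones were those of Lig1, the ligase of lagging-strand fragments (256, 112, 65.3 and 74.6), Nek2, a centrosome kinase (208.5, 99.0, 228 and 66.5), and Cdt1, a licensing factor (147, 180.1, 65.6 and 101). A second Lig1 probe set, below the filter, read 11.7, 26.8, 90.0 and 41.8, with a slope of the opposite sign (0.32). A second Foxm1 probe set, also below it, read 20.7, 32.3, 14.5 and 30.3. At 1 h, 25 of the 32 read higher than the mean of the other arrays, beside 4072 of all 7453 tested.

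Granule cell markers were read to describe the tissue. Without markers of other hippocampal fields beside them, they do not check the dissection. Calb1 (calbindin) read between 2033 and 2375 and Dsp (desmoplakin) between 970 and 1109 on its brighter probe set. Prox1, a transcription factor of granule neurons, read 71.6, 278, 155 and 232. Neurod2, of the same list, read 1193, 1857, 1673 and 1920, also lowest at 1 h. The sum over this list was 4307 at 1 h, against 5205 to 5638 later. Marker lists of cells that divide or may carry division genes were summed over their probe sets. The sum ran from 2816 to 3068 for 11 probe sets of progenitor and immature neuron genes, from 2042 to 2635 for 5 of oligodendrocyte progenitors, from 4547 to 5064 for 5 of microglia, and from 744.5 to 1351 for 5 of endothelial cells. The endothelial sum was highest at 1 h and lowest at 6 h. Each of its probe sets was lowest at 6 h, but only 1, of Flt1, was highest at 1 h (327.5, 65.8, 185.6 and 55.3). Cldn5, Pecam1 and the other Flt1 probe set were highest at 2 h, and Kdr at 4 h. That of erythrocyte genes, over 3 probe sets, ran from 2470 to 3904 and was highest at 4 h. The choroid plexus sum, over 3 probe sets, was 359 at 1 h and 3306 at 6 h, and Ttr of that list was the 1 probe set that passed the trend test (limma adjusted p = 0.0232). Their part in the readings of the members was not tested.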

How the data were processed

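The authors deposited 1 table of linear intensity values, with a column for each array. It has 12488 probe sets, and the 66 controls among them were set aside. The software, scaling and detection calls are not given in the sources used here. The 2%-trimmed mean was 500.3 in each array, so values were used as deposited, and a difference in total RNA does not show in them. The median of the non-control probe sets was 169.4 at 6 h, against 182.0 to 183.6 in the other arrays. Values under the 10th percentile (16.4) were raised to it before taking log2. Such values numbered 1056, 1179, 1248 and 1462 at 1, 2, 4 and 6 h. Tests ran on the 7453 probe sets whose mean log2 value reached the 40th percentile. Gene names came from the array annotation, with symbols checked by Entrez identifier against a GRCm38.p6 gene table, which changed none of the members' symbols.

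The trend was fitted in R 4.3.3 with limma 3.58.1 (lmFit and trended eBayes) on the hour, with 2 residual degrees of freedom, two-sided, with Benjamini-Hochberg adjustment over 7453 probe sets. Differences between hours are counted at 2-fold without a test. Precision is limited by there being only 4 arrays.

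The members and gene lists were chosen with earlier results of these data known. Named are all genes of the proliferation and neuronal sets, the 10 brightest members and genes whose probe sets disagree. The 5 members of largest slope in each direction, of largest 1 h difference and of smallest SD are named too. Outside the members these are 3 pathway genes per direction and some of the cell type markers. Astrocyte and meningeal fibroblast markers were also read but are not shown. Other members were named after their values were seen. Alternatives were scaling to a common median, other filters and floors, leaving out each array or the probe sets of shared sequence, and 3 other forms of the trend.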

Additional observations from a re-analysis of the deposited data

Results flagged for a closer look

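Taking the 4 handled controls together, 4 of 66 tested members had 1 array whose gap to its neighbour, as a part of their log2 range, was past the 95% limit of Dixon's test for 4 samples. Chance flags about 1 in 20, and 8.63% of all 7453 tested probe sets were past the limit. Ccnd2 (a gap of 0.855 of the range), Cdc42ep4 (0.855) and Cdc34 (0.831) were lowest at 1 h. That array had the Gapdh ratio of 4.88 and the actin ratio of 2.51. Cdc5l (0.861, on its brighter probe set) was lowest at 4 h, at 450.3 against 563 to 583.5 in the other arrays.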

How the results depend on the processing

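No paired analysis was possible because each hour has 1 array, and the sample titles carry the same ordinal for all 4. No member passed the trend test under any of the 12 alternatives run in limma. The count at an unadjusted p under 0.05 was 1 and became 2 with arrays scaled to the same median, 7 with no filter, 0 with the filter at the 60th percentile, 0 without probe sets of shared sequence, 4 on the log2 of the hour, 5 with a variance prior without a trend, 0 with late against early hours, and 0 to 7 when 1 array was left out. With no filter on dim probe sets, members at least 2-fold higher than 1 h numbered 12, 5 and 8 at 2, 4 and 6 h and those lower 9, 10 and 12. Against the other arrays they numbered 11, 6, 4 and 4 higher and 8, 6, 8 and 6 lower at 1, 2, 4 and 6 h, of 99. All 35 proliferation probe sets were then in. Over all probe sets, 134 of 7453 tested and 964 of 4969 dim ones were at least 2-fold higher at 1 h. At least 2-fold lower were 394 and 547. Other counts under the alternatives have no share over all probe sets beside them, and are not a result about the members. With the filter at the 60th percentile, 40 members and 5 proliferation probe sets were kept. Then 3, 0 and 2 members were higher than 1 h and 0 lower at 2 h and 6 h. Against the other arrays 2 were lower at 1 h, 1 higher and 0 lower at 2 h, 0 higher at 4 h and 0 lower at 6 h. With the same median, 0 were higher than the other arrays at 2 h, 0 higher at 4 h and 1 lower at 6 h. Without probe sets of shared sequence, 1 was higher than 1 h at 4 h, 1 lower at 6 h, and against the other arrays 1 higher at 2 h and 1 lower at 6 h. Leaving out 1 array at a time gave 1 lower at 6 h than at 1 h (lowest and highest alike). Against the other arrays it gave 0 to 2 higher and 3 to 6 lower at 1 h, 0 to 3 higher at 2 h, and 0 to 1 lower at 6 h. The median slope of the neuronal set ran from -0.043 without the 1 h array to 0.077 without the 2 h array. That of the proliferation set ran from -0.051 without the 2 h array to 0.013 without the 6 h array. The count of those lower at 1 h was 3 without the 6 h array. The cause of these changes was not tested, beyond the number of probe sets that each filter admits. With 1 array per hour and 2 residual degrees of freedom, small changes in dim genes cannot be resolved.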

Other observations

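Genes of progenitors and immature neurons, which mark the dividing zone of the dentate gyrus, were read on 11 probe sets of 7 genes, of which 6 passed the filter. Sox2, a stem cell factor that astrocytes share, read 1406, 990.5, 1132 and 1071 at 1, 2, 4 and 6 h, and Nes (nestin) 241, 209.4, 349 and 137 on its brighter probe set. Sox11, a factor of young neurons, read 360.5, 538, 546 and 574 on its brighter probe set and Dcx (doublecortin) 304, 180, 306 and 421. Neurod1, which drives granule cell differentiation, read 418, 470.1, 326 and 353. Hes5, a Notch target of progenitors, read 51.9, 183, 187 and 151 on the probe set that passed, and its 1 h value stood furthest from the other arrays among those of the list that passed. Eomes, a marker of intermediate progenitors, read 65.8 or less on both probe sets. Sox2 was highest and Sox11 lowest at 1 h, and Nes was highest at 4 h and lowest at 6 h.

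Oligodendrocyte progenitors also divide in adult tissue. Pdgfra, their growth factor receptor, read 1042, 1250, 889 and 1006 on its brightest probe set, and Sox10, a factor of the whole lineage, 906, 935, 900 and 796 on its brighter one. Both were highest at 2 h. So were the oligodendrocyte markers Mbp (both probe sets) and Mog, whose summed intensity was 7644.5 at 2 h against 4929 to 5798 in the other arrays.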
